A study of Mus musculus with 2 samples.

Results

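The genes described here encode the NF-κB transcription factor subunits (Rela, Relb, Rel, Nfkb1 and Nfkb2) and the IκB proteins that bind them (Nfkbia, Nfkbib, Nfkbie, Nfkbiz and Bcl3). They were chosen by name as members of these families and make up 10 of the 49492 genes in the count table. Mammary basal cells (lin−CD24+CD29hi) were sorted by flow cytometry from wild type adult female mice and grown as primary cells in 3D matrix gel, in medium with EGF and insulin-transferrin-selenium. The TNF-α group received recombinant mouse TNF-α at 10 ng/mL for 10 days, and the control group was labelled as having no treatment. The culture time of the control is not stated separately in its labels, and whether cells of several animals were pooled is not given in the sources used here. RNA of the cultured colonies was sequenced, although the series title calls it a microarray, and reads per gene were deposited for 1 control library and 1 TNF-α library. The library totals were 44462275 counts without and 53487087 counts with TNF-α.

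TNF-α is a cytokine whose receptors activate the IκB kinase complex. In resting cells IκB proteins hold NF-κB dimers in the cytoplasm, and phosphorylation of IκB by the kinase leads to its ubiquitination and degradation, so that the dimers enter the nucleus and turn on target genes, among them several IκB genes. In the mammary gland this pathway acts in alveolar development downstream of RANK and in the response to infection.

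The comparison asks how the transcripts of this system differ between TNF-α treated and untreated cultures grown from sorted basal cells. With 1 library per condition no difference has a replicate check, so no test or p-value is given, and "higher" and "lower" compare these 2 libraries. Levels are counts scaled to library size (CPM, with sizes adjusted by the TMM method), and the log2 ratio is that of TNF-α to control CPM with a prior count of 2. The 95% intervals (Clopper-Pearson for ratios, exact Poisson for counts) cover counting error at most, as 1 library per condition shows no spread between cultures. They may be too narrow even for that, since no molecular identifiers are described and PCR copies of a molecule are not independent. The counts also have a pattern of read pairs whose ends are counted singly, so some intervals are given with counts divided by 2 as well. These are bulk libraries, so a higher or lower share of cells of a type cannot be told apart from more or less RNA per cell.

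The TNF-α library held more transcript of most NF-κB and IκB genes. The log2 ratio was above 0 for 9 of the 10 genes, and 5 of them (Nfkbie, Nfkbia, Bcl3, Relb and Nfkb2) were more than 2-fold higher, while 0 were more than 2-fold lower. Of 20771 genes that had 10 or more counts in both libraries together, 8.56% were more than 2-fold higher and 6.62% more than 2-fold lower. Among the 13609 genes with at least 200 counts, to which all 10 belong, these shares were 4.01% and 2.87%. The median log2 ratio was 1.02 over the 10 genes and 0.0038 over the 20771 genes. Of the 5 genes past the 2-fold limit, Nfkb2 was nearest to it with a log2 ratio of 1.27, and the gene nearest below it was Rel at 0.77.

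**Figure D1:**
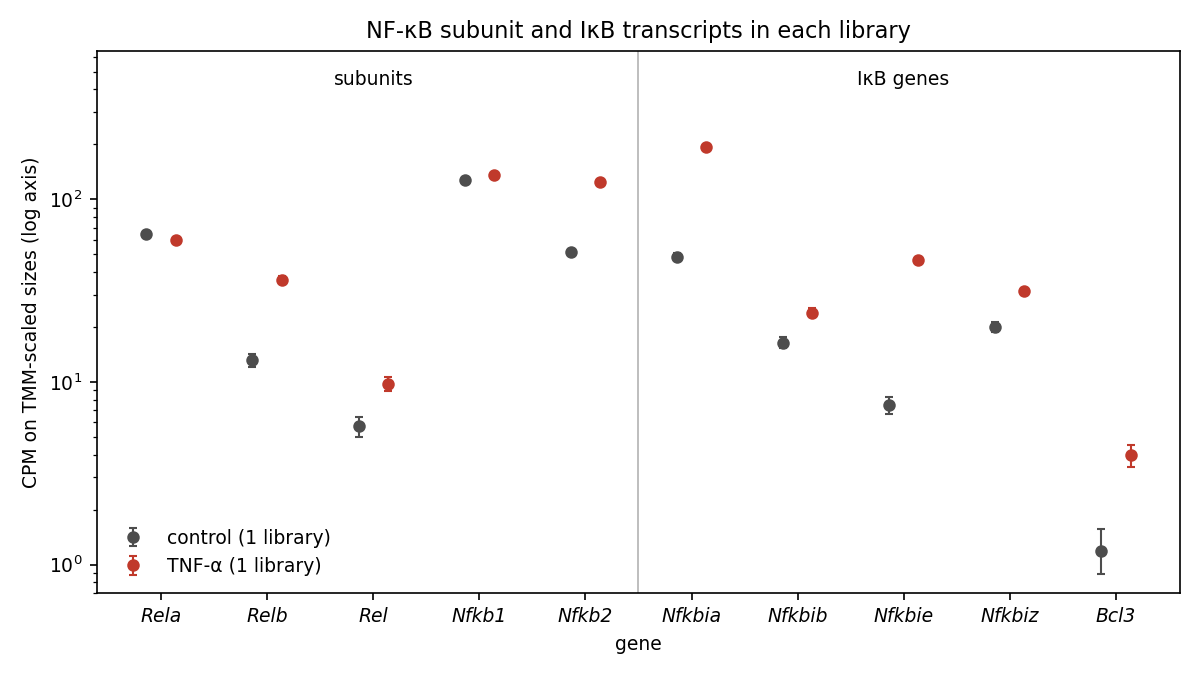
Level of each NF-κB subunit and IκB gene in CPM on a log axis in the control library (grey) and the TNF-α library (red), 1 library each, with bars for the exact 95% Poisson interval of the count. Nfkbia went from 48.4 to 194 CPM and Nfkbie from 7.43 to 46.4 CPM, while Rela lay at 64.6 and 60.0 CPM.

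Among the subunits, the ratios separated the genes of the RelB-p52 dimer from those of the RelA-p50 dimer. Gene coordinates are those deposited, on GRCm38. Rela (chr19:5637483-5648130, plus strand) encodes RelA or p65, the transactivating subunit of the canonical pathway. It had 2877 counts in the control and 3204 in the TNF-α library, or 64.6 and 60.0 CPM, a log2 ratio of -0.10 (95% interval -0.18 to -0.03). Nfkb1 (chr3:135584655-135691547, minus strand) encodes p105, which is processed to p50, the usual partner of RelA. Its counts were 5712 and 7231, or 128 and 136 CPM, a log2 ratio of 0.08 (0.03 to 0.13). Both genes of the canonical dimer thus lay close to the median of all genes, with Rela slightly below it and Nfkb1 slightly above it. With counts divided by 2 the interval of Rela was -0.21 to 0.0017 and spanned 0.

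Relb (chr7:19606217-19629438, minus strand) encodes RelB, the transactivating subunit of the non-canonical pathway. It was counted 585 times in the control library and 1937 times in the TNF-α library, or 13.1 and 36.3 CPM. This was 2.76-fold higher with TNF-α (2.52 to 3.04). Nfkb2 (chr19:46304737-46312090, plus strand) encodes p100, which retains RelB in the cytoplasm until it is processed to p52. Its counts were 2294 and 6624, or 51.5 and 124 CPM, 2.41-fold higher with TNF-α (2.30 to 2.53). Relb and Nfkb2 ranked 304th and 370th by log2 ratio among the 13609 genes with at least 200 counts. The counts measure RNA, and neither the processing of p100 and p105 nor the location of any subunit was measured.

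Rel (chr11:23736847-23770970, minus strand) encodes c-Rel, a subunit best known from lymphocytes. It was the least counted subunit, with 254 counts in the control and 519 in the TNF-α library, or 5.70 and 9.73 CPM. The 1.70-fold higher level (1.47 to 1.99) lay between the canonical and the non-canonical genes. Its interval ended just under 2-fold, and with counts divided by 2 it reached a log2 ratio of 1.09, past 2-fold.

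All 5 IκB genes were higher in the TNF-α library, and 3 of them by more than 2-fold. Nfkbia (chr12:55489411-55492647, minus strand) encodes IκBα, the inhibitor that is degraded and made again in each round of signalling. Its counts were 2156 and 10342, or 48.4 and 194 CPM, 4.0-fold higher with TNF-α (3.82 to 4.20). Nfkbie (chr17:45555716-45563169, plus strand) encodes IκBε, a slower inducible inhibitor of RelA and c-Rel dimers. Its 331 counts in the control library stood against 2477 in the TNF-α library, or 7.43 and 46.4 CPM, 6.22-fold higher (5.57 to 7.03). Nfkbie had the highest ratio of the 10 genes and ranked 90th of the 13609 genes, and Nfkbia ranked 166th.

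Nfkbib (chr7:28758251-28767512, minus strand) encodes IκBβ, a cytoplasmic inhibitor known as less inducible than IκBα. It had 732 and 1278 counts, or 16.4 and 24.0 CPM, and was 1.46-fold higher with TNF-α (1.33 to 1.60). The classical inhibitors were thus ordered IκBε, IκBα and IκBβ by ratio, with intervals that did not overlap.

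Nfkbiz and Bcl3 encode atypical IκB proteins, which act in the nucleus on promoters bound by p50 or p52. Nfkbiz (chr16:55811375-55838899, minus strand) encodes IκBζ and had 890 and 1670 counts, or 20.0 and 31.3 CPM, 1.57-fold higher with TNF-α (1.44 to 1.70). Bcl3 (chr7:19808462-19822770, minus strand) had 53 counts in the control (39.7 to 69.3) and 211 in the TNF-α library (184 to 241), or 1.19 and 3.95 CPM. Bcl3 was 3.25-fold higher, and with so few counts its interval of 2.45 to 4.58 overlapped those of Relb, Nfkb2 and Nfkbia. Bcl3 was the least counted of the 10 genes in both libraries.

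Levels were compared between genes as CPM per kb of exon length, with the deposited lengths first. On this scale the control library was led by Nfkbia (30.7), followed by Rela (23.8), Nfkb2 (15.6), Nfkb1 (10.6) and Nfkbib (7.57). Nfkbiz (3.98), Relb (3.38) and Nfkbie (3.07) formed a lower group, and Rel (0.763) and Bcl3 (0.480) came last. The Poisson intervals of the neighbours Relb (3.11 to 3.66) and Nfkbie (2.74 to 3.42) overlapped. With counts divided by 2, those of Nfkbiz (3.61 to 4.36) and Relb (3.00 to 3.79) and those of Rel (0.636 to 0.907) and Bcl3 (0.322 to 0.711) overlapped as well. The TNF-α library was led by Nfkbia (123) and Nfkb2 (37.7), with Rela (22.1) and Nfkbie (19.2) next. Nfkb1 (11.2), Nfkbib (11.0), Relb (9.34) and Nfkbiz (6.24) followed, and Bcl3 (1.60) and Rel (1.30) were again the lowest. There, the intervals overlapped for Nfkb1 and Nfkbib and for Bcl3 and Rel. With deposited lengths Nfkbie moved furthest in this order, from just below Relb to just below Rela. Principal mRNA lengths from GENCODE M21, an alternative chosen after seeing the data, change several places. In the control library Nfkb1 (31.1) then stood beside Nfkbia (30.7) at the top and Relb (5.94) above Nfkbiz (4.85). In the TNF-α library Nfkb1 (32.9) stood above Rela (22.1), and Relb (16.4) above Nfkbib (11.6).

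The makeup of the subunit transcripts differed between the libraries. Summed over the 5 subunits, the level per kb was 54.2 in the control and 81.7 in the TNF-α library. Rela made up 43.9% of this sum in the control library and 27.0% with TNF-α, while Nfkb2 made up 28.9% and 46.2%. Relb went from 6.24% to 11.4%, Nfkb1 from 19.6% to 13.7%, and Rel stayed under 2% at 1.41% and 1.59%. Rela led the subunits per length in the control and Nfkb2 in the TNF-α library. The place of Nfkb1 depends on the length used, since its deposited exons sum to 12061 bases and its principal mRNA is 4117 bases. With principal mRNA lengths Nfkb1 was the leading subunit in the control library at 39.9% and stood at 29.3% with TNF-α, behind Nfkb2 at 35.2%. With either length, the shares of Nfkb2 and Relb were higher and those of Rela and Nfkb1 lower in the TNF-α library.

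The IκB transcripts differed more in sum than the subunits. Their summed level per kb was 45.8 in the control and 161 in the TNF-α library, a 3.52-fold difference beside 1.51-fold for the subunits. The ratio of the IκB sum to the subunit sum was 0.845 in the control and 1.97 in the TNF-α library. Nfkbia made up most of the IκB sum in both libraries, with 67.0% in the control and 76.4% in the TNF-α library. The share of Nfkbie went from 6.70% to 11.9%, and that of Bcl3 was 1.05% and 0.993%. Although their levels were higher with TNF-α, Nfkbib and Nfkbiz had lower shares, from 16.5% to 6.86% and from 8.69% to 3.88%.

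**Figure D2:**
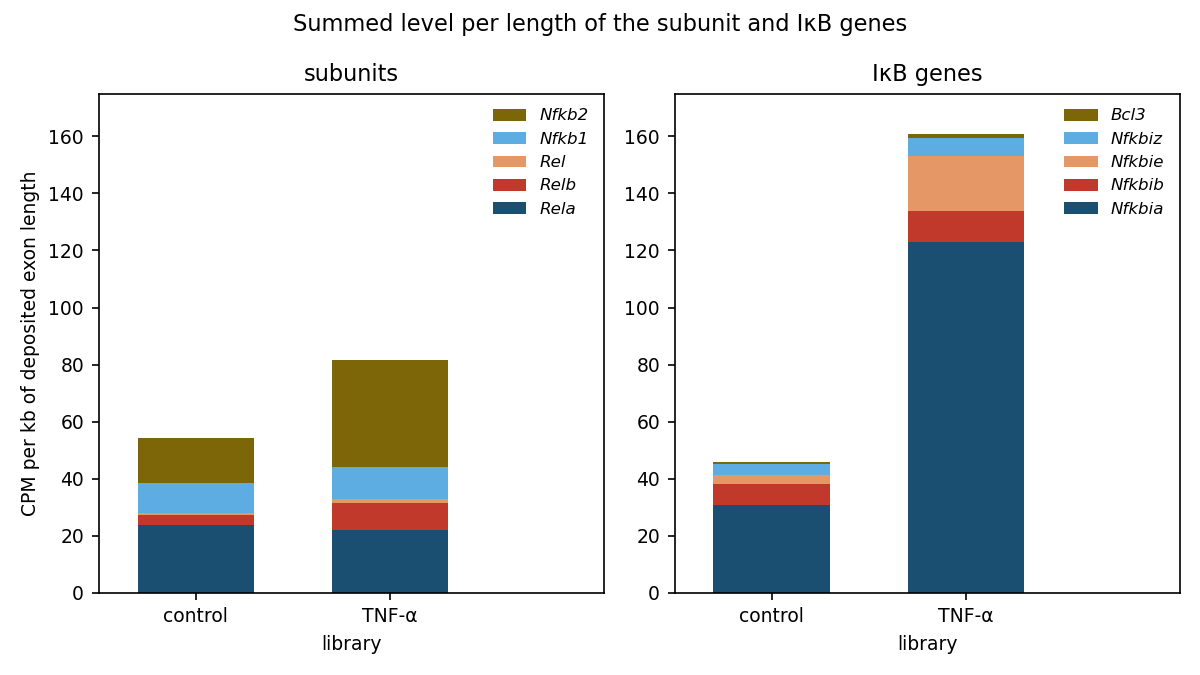
Stacked levels of the subunit genes (left) and IκB genes (right) in CPM per kb of deposited exon length, for the control and the TNF-α library, 1 library each. The subunit sum was 54.2 and 81.7, and the IκB sum 45.8 and 161, with Nfkbia making up 76.4% of the latter.

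The position of the genes was not used to choose them. Relb and Bcl3 lie on chromosome 7 with 179024 bases between them, and each was the neighbour with the highest log2 ratio of the other. Besides the 10 genes, 106 genes with at least 200 counts start within 250 kb of any of them. Their median log2 ratio was 0.01, 1 was more than 2-fold higher and 3 were more than 2-fold lower. The higher one was Psd, next to Nfkb2, with a log2 ratio of 1.28, and the lowest value was that of Apoe near Relb and Bcl3, at -1.26. These neighbours are named after their values were seen.

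Exons of other genes overlap a few of the 10 genes on the opposite strand, and whether counting used the strand is not given in the sources used here. Bcl3 shares 161 bases (6.51% of its length) with Gm16175, which had 8 and 22 counts. Nfkbib shares 314 bases (14.5%) with Ccer2, which had 14 and 24 counts, and 42 bases with Sirt2, which had 1050 and 1281 counts. Nfkb2 shares 4 bases with Psd, which had 206 and 602 counts. The other genes share no exon base with another gene of the table.

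The κB consensus, a motif of 10 letters with R and Y positions, was searched on both strands in RefSeq promoter windows (GRCm38.p6) of 250 bases before to 50 bases after the start. The table held 9 windows for 7 of the genes, 3 of them for Nfkb2, and Nfkb1, Relb and Nfkbiz were not in it. Windows of 5 genes (Nfkbia, Nfkbie, Rel, Nfkb2 and Bcl3) held a match, and those of Rela and Nfkbib held none. By window, 7 of the 9 held a match, beside 8.46% of all 32851 windows in the table. These include all 3 windows of Nfkb2. The Nfkb2 windows after the first overlap each other and share the site chr19:46305705-46305714. By gene, the 5 of 7 stand beside 9.55% of 27025 genes. In this group of genes, the 4 with a ratio past 2-fold and a window were all among the 5 with a match, and the remaining gene with a match was Rel. The stretches before the start that hold the matches are printed for the 4 genes with a match there, to show its letters, each on the strand of its gene, with every base of a match on either strand in capitals. They are chr12:55492648-55492706 for Nfkbia, chr17:45555564-45555633 for Nfkbie, chr11:23771021-23771091 for Rel and chr19:46304690-46304716 for Nfkb2.
Nfkbia, minus strand: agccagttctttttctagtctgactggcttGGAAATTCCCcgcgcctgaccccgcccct
Nfkbie, plus strand: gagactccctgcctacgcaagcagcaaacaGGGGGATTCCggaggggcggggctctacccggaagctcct
Rel, minus strand: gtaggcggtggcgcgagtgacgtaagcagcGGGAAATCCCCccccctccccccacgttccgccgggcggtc
Nfkb2, plus strand: atcgtcacGGGAATTCCCCccctcggg
The matches begin 29 bases before the start in Nfkbia, 106 in Nfkbie, 92 in Rel and 39 in Nfkb2. In Rel and Nfkb2 the capitals hold 3 overlapping matches over both strands. The first Nfkb2 window has a further match at chr19:46304726-46304735, 11 bases before the start, and its other windows hold matches as well. GENCODE M21 places annotated exons, whose gene and strand were not recorded, over the Nfkb2 stretch, and no exon over the other stretches. The match in Bcl3 (gggaagtccc, chr7:19822744-19822753) lies after the start, from base 3. A match describes these letters and was not measured as a bound site.

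None of the genes that phosphorylate or ubiquitinate IκB was past 2-fold, beside 4.01% higher and 2.87% lower of all genes with at least 200 counts, so that 0 in lists of this size is near the share over all genes. Ikbke and Tank came nearest to 2-fold. Of 11 IκB kinases and activators, 0 were past 2-fold in either direction, with a median log2 ratio of -0.03. Chuk and Ikbkb, the catalytic kinases, and Ikbkg, their scaffold NEMO, had log2 ratios of -0.12, 0.14 and -0.08, and these 3 were named after their values were seen. The highest ratio was that of Ikbke, the inducible kinase IKKε, with 21.8 and 43.2 CPM (log2 ratio 0.99, 0.88 to 1.10), just under 2-fold. Tank, an adaptor of the IKKε and TBK1 kinases, came next with 57.4 and 105 CPM (0.87, 0.80 to 0.94) and was also named after its values were seen. The lowest was that of Map3k14, the NIK kinase of the non-canonical pathway, with 16.5 and 13.2 CPM (-0.32, -0.47 to -0.17). The IκB ubiquitin ligase list had 0 of 8 genes past 2-fold and a median of 0.14. In that list Nedd8, the modifier that activates cullin ligases, was highest (92.5 and 122 CPM, log2 ratio 0.40), and Btrc, the β-TrCP receptor of phosphorylated IκB, was lowest (31.8 and 28.1 CPM, -0.18).

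Of 8 other IκB-like proteins and nuclear regulators, 0 were past 2-fold and the median log2 ratio was 0.05. Over the 7 with at least 200 counts the median was -0.02. Of all genes with at least 10 counts, 8.56% were more than 2-fold higher and 6.62% more than 2-fold lower. Nfkbil1 was highest (12.1 and 15.3 CPM, log2 ratio 0.34) and Pdlim2, a nuclear ligase for RelA, lowest (18.6 and 13.0 CPM, -0.52). Nfkbid, the remaining atypical IκB gene, had only 39 and 51 counts, and its interval of -0.50 to 0.77 on the log2 scale spans 0. The 10 coactivators and corepressors also had 0 past 2-fold, with a median of -0.19, from Crebbp, an acetyltransferase of RelA (94.7 and 70.9 CPM, -0.42), to Kat5 (25.3 and 30.8 CPM, 0.28).

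The feedback inhibitors of the pathway were uneven. Of 14 genes, 4 were more than 2-fold higher and 0 lower, with a median log2 ratio of 0.22. All 14 had at least 200 counts, and of all genes at that depth 4.01% were more than 2-fold higher and 2.87% lower. Tnip3 (2.60 and 46.7 CPM, log2 ratio 4.14) and Tnfaip3, which encodes the ubiquitin-editing enzyme A20 (16.7 and 91.4 CPM, 2.45), were highest, then Tnip1 (107 and 292 CPM, 1.46) and Traf1 (5.70 and 12.8 CPM, 1.17), and Otulin was lowest (47.5 and 40.4 CPM, -0.23). In the TNF receptor complex, also with at least 200 counts each, the median was 0.09. Beside the same 4.01% of all genes, 2 of its 11 genes were more than 2-fold higher. These were the receptor Tnfrsf1b, with 18 and 207 counts (log2 ratio 3.14, 2.57 to 4.05), and the ubiquitin ligase Birc3 (19.7 and 70.0 CPM, 1.82), while the lowest was the adaptor Traf5 (18.6 and 13.0 CPM, -0.51).

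Of 15 genes of the non-canonical pathway, 12 had at least 10 counts, with a median log2 ratio of 0.57. Of these 12, 4 were more than 2-fold higher and 0 lower, beside 8.56% and 6.62% of all genes at this filter. Over the 8 genes with at least 200 counts the median was 0.30. Birc3 was the only one of the 4 with at least 200 counts, so that 1 of 8 stands beside 4.01% of all genes there. The receptor gene Cd40 had 18 and 114 counts (log2 ratio 2.29, 1.68 to 3.21), and the ligand genes Tnfsf11 (2 and 16 counts, 1.99, 0.65 to 5.90) and Tnfsf13b (4 and 14 counts, 1.21, -0.12 to 3.61) rest on few counts. The lowest gene with at least 200 counts was Tnfrsf11a, the receptor RANK (6.33 and 4.24 CPM, -0.57). The genes Traf2, Birc2, Birc3, Map3k14 and Tnfsf13b stand in 2 of the lists each.

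The targets of the canonical pathway had a median of 0.92 over the 19 of 21 genes with at least 10 counts. This was the highest of the lists at this filter but not without a filter. Of the 19 genes, 8 were more than 2-fold higher and 0 lower, beside 8.56% and 6.62% of all genes at this filter. C3, the central complement component, had the highest ratio, with 39.0 CPM in the control and 1053 CPM in the TNF-α library (log2 ratio 4.75, 4.69 to 4.83). Vcam1 and Icam1, adhesion molecules for leukocytes, had log2 ratios of 3.90 (9.85 and 148 CPM) and 1.24 (120 and 283 CPM). The protease gene Mmp9 (2.18 and 15.1 CPM, 2.77), the immunoproteasome gene Psmb9 (2.80 and 10.1 CPM, 1.84), the transcription factor gene Irf1 (16.1 and 54.8 CPM, 1.76) and Tnfaip2 (8.50 and 28.6 CPM, 1.75) were the others with at least 200 counts. The chemokine gene Cxcl10 was also past 2-fold, on 6 and 136 counts (3.88, 3.08 to 5.71). Not every target was higher, and Ier3 was the lowest, with 28.1 and 21.5 CPM (-0.39, -0.51 to -0.27).

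The targets of RelB-p52 were mixed and few of them were well counted. Of 6 genes 4 had at least 10 counts. Of these, 2 were more than 2-fold higher and 1 lower, beside 8.56% and 6.62% of all genes at this filter. The median log2 ratio of the 4 genes, 0.31, became -2.48 over the 2 genes with at least 200 counts. Cxcl13, a chemokine of lymphoid tissue, was lower, with 279 counts in the control and 14 in the TNF-α library (6.26 and 0.262 CPM, log2 ratio -4.38, -5.47 to -3.81). The chemokine gene Cxcl12 was also lower, with 73.7 and 49.1 CPM (-0.59, -0.66 to -0.51). The 2 higher genes, Madcam1 (2 and 16 counts, 1.99, 0.65 to 5.90) and Tnfsf13b, rest on few counts, and Ccl19 had 0 counts in both libraries.

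Of 9 targets of IκBζ, 5 had at least 10 counts, with a median log2 ratio of 0.43. Of these, 2 were more than 2-fold higher and 0 lower, beside 8.56% and 6.62% of all genes at this filter. Ccl2, a chemokine for monocytes, went from 16 counts to 1113 (0.359 and 20.9 CPM, log2 ratio 5.71, 5.15 to 6.67). Csf2 was the other higher gene, with 4 and 16 counts (1.38, 0.11 to 3.78). S100a9 was the lowest with at least 200 counts (10.2 and 8.77 CPM, -0.21), and Il12b and Defb4 had 0 counts in both libraries. Over all 10 lists, with each gene taken once, 97 of 108 genes had at least 10 counts, with a median of 0.15. Of these 97, 20 were more than 2-fold higher and 1 lower, beside the same 8.56% and 6.62%. Of the 88 with at least 200 counts, 14 were higher and 1 lower, beside 4.01% and 2.87% of all genes there.

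**Figure D3:**
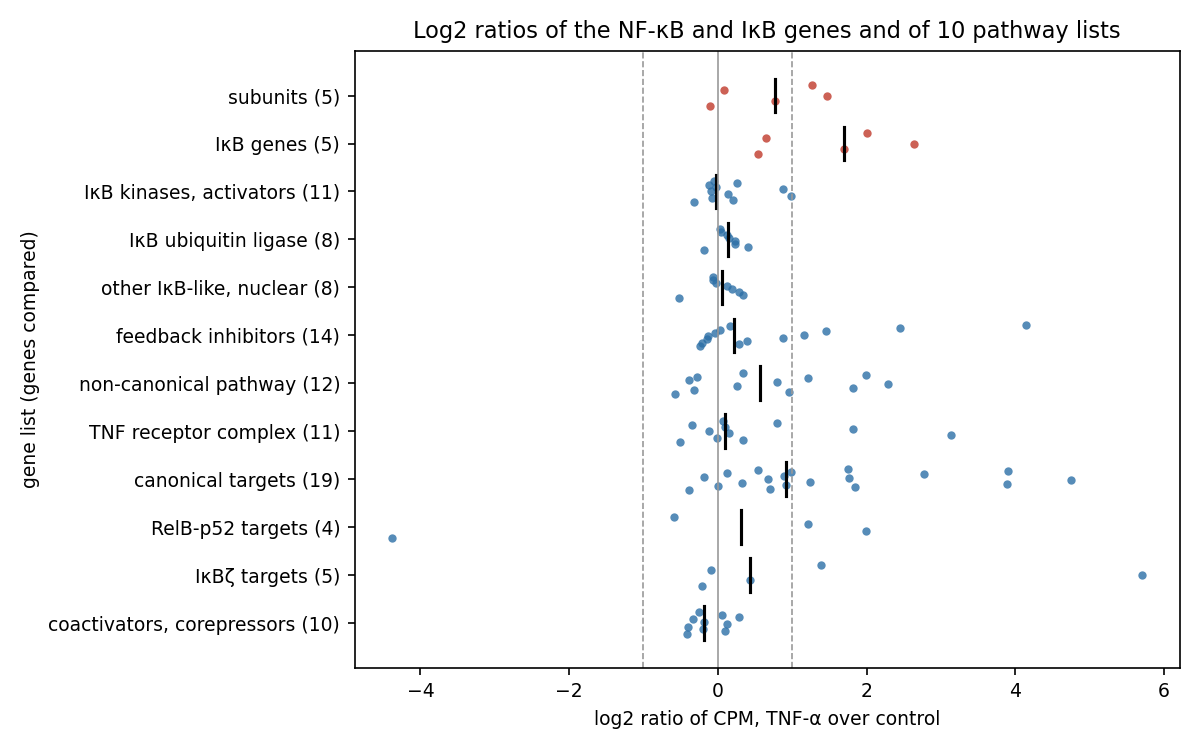
Log2 ratio of TNF-α to control CPM for each NF-κB subunit and IκB gene (red) and each gene of 10 pathway lists (blue) with at least 10 counts, with black bars for list medians and dashed lines at 2-fold. The medians were 0.77 for the subunits, 1.70 for the IκB genes and 0.92 for the canonical targets, beside 0.0038 over all genes compared.

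The cell types in the cultures were looked at through marker transcripts, which do not give shares of cells. By flow cytometry, the paper found mostly luminal cells in control colonies grown from basal cells in its co-culture experiment. It reported a larger share of basal cells with TNF-α than without. Basal markers were abundant in both libraries, with a sum over 7 genes of 11593 CPM in the control and 10570 CPM in the TNF-α library, and Krt14 the most counted (5155 and 4871 CPM). Of these 7 genes, 1 was more than 2-fold lower, Oxtr, with 241 and 106 CPM. The 10 luminal markers summed to 3680 and 2611 CPM, led by Krt8 (1213 and 1132 CPM), so both cultures held luminal transcripts besides the basal ones. The log2 ratio of 0 luminal markers was above 0, and 3 were more than 2-fold lower. These were Esr1 (57.1 and 20.5 CPM), Pgr (162 and 55.7 CPM) and Prlr (129 and 58.5 CPM). The median log2 ratio was -0.89 over the luminal markers. It was -0.20 over the basal markers, of which 2 had a ratio above 0. The marker counts here and below stand beside 8.56% higher and 6.62% lower of all genes with at least 10 counts.

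Leukocytes use NF-κB strongly, so their markers are given beside the results. Cells staining for blood or endothelial surface markers, CD45 and CD31 among them, had been gated out (lin−) before culture. The 14 leukocyte markers summed to 17.7 CPM in the control and 17.8 CPM in the TNF-α library. Of the 9 with at least 10 counts, 1 was more than 2-fold higher, Cybb, on 20 and 52 counts, and 0 were lower. The most counted was Lcp1, with 382 and 535 counts, and the defining gene Ptprc had 26 and 38. Lcp1 alone made up 8.57 and 10.0 CPM of the sums. The log2 ratio was above 0 for 4 of the 9 and the median was -0.32, with Csf1r at 92 and 81 counts and Itgam at 50 and 40, both named after their values were seen. Cd3e had 0 counts in both libraries, and Adgre1 had 0 in the control and 2 in the TNF-α library. The 7 fibroblast markers summed to 528 and 535 CPM, led by Col1a2 (207 and 229 CPM), with 1 more than 2-fold higher, Dcn (4.13 and 10.9 CPM). The markers went both ways, as Col3a1 had 126 and 79.6 CPM and Thy1 28.6 and 48.8 CPM, named after their values were seen. The 6 endothelial markers summed to 7.34 and 7.01 CPM, with Cdh5 the most counted over both libraries (112 and 157 counts) and Pecam1 slightly ahead of it in the control (117 and 114), and of the 5 with at least 10 counts 0 were past 2-fold. The sums of the leukocyte, fibroblast and endothelial markers were close between the libraries and the luminal sum was lower with TNF-α, and the part of any of these cell types in the NF-κB and IκB ratios was not tested.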

How the data were processed

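The authors deposited raw read counts per gene for both libraries, with exon coordinates, strand and summed exon length. The submitters' processing notes name GRCm38 (mm10), and the aligner, counter and strand setting are not given in the sources used here. Each condition has 1 library, and 0 sample columns were left unmapped. Library sizes were adjusted by TMM in edgeR 4.0.16 (R 4.3.3), giving a TNF-α to control size ratio of 1.20. A count of 10 equals 0.224 CPM in the control and 0.187 CPM in the TNF-α library. Ratios, intervals and motif matches were computed in Python 3.11.15 with numpy 2.4.6, pandas 2.3.3 and scipy 1.17.1, and plots in matplotlib 3.10.9. The ratio step was run on simulated independent Poisson counts. These have no doubled reads and no spread between cultures, so the run checks the calculation only. Genes with at least 10 counts were compared. Named genes are the 10 genes, among genes with at least 200 counts in each pathway list those past 2-fold and those with the highest and lowest ratio, and the most counted gene of each marker list; others were named after their values were seen. The genes and lists were chosen with earlier results of these data known. Alternatives were total counts, DESeq2 1.42.0 size factors, upper quartile scaling, other prior counts, filters and folds, counts divided by 2 and other motif settings.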

Additional observations from a re-analysis of the deposited data

How the results depend on the processing

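No paired analysis was possible because there is only 1 library in each group. Alternatives for the ratios were sizes from total counts, upper quartiles or DESeq2, prior counts of 0.5 and 5, and counts divided by 2. Under each, every log2 ratio of the 10 genes kept its sign and stayed within its counting interval. The median of the 10 ratios ranged from 1.01 to 1.02. Other filters could not change these values, since library sizes were kept and all 10 genes had at least 200 counts. Rela ranged from -0.11 to -0.10 and Nfkb1 from 0.07 to 0.08. The 5 genes past 2-fold became 3 at a fold of 3 and 7 at a fold of 1.5, and 0 were lower under any setting. Over all genes, 1777 were higher and 1375 lower. These counts became 2679 and 2996 with no filter, 836 and 658 with at least 1 CPM in a library, 546 and 390 with at least 200 counts, 3210 and 2846 at a fold of 1.5, and 875 and 587 at a fold of 3, where the number of genes compared or the fold itself sets the change. The median of the RelB-p52 targets was -2.48 with at least 200 counts or 1 CPM, where 2 genes were left, and 1.22 with no filter, above the 0.98 of the canonical targets there. That of the non-canonical pathway was 0.30 with either minimum and 0.34 with no filter. With the looser κB consensus 5 genes held a match, and with the 250 bases before the start alone 4 did.

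Depth limits Bcl3 most, with 53 control counts. Genes with 2 counts (2172 control, 2350 TNF-α) outnumbered those with 1 (618 and 645), the pattern of read pairs whose ends are counted singly. With counts divided by 2, the interval of Bcl3 on the log2 scale widened from 1.29 to 2.20 to 1.10 to 2.38. On the same log2 scale the interval of Rel became 0.47 to 1.09, which spans the log2 ratio of 1 that equals 2-fold. With principal mRNA lengths the IκB to subunit ratio was 0.605 and 1.45.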

Other observations

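Outside the 10 genes, 1539 genes with at least 10 counts had the κB consensus in a RefSeq promoter window, and 123 of them (7.99%) lay above a 2-fold ratio of TNF-α to control and 95 (6.17%) lay below the inverse fold. Of the 11088 genes whose windows held no match, 614 (5.54%) were higher and 703 (6.34%) lower. The median log2 ratio was 0.00031 in the former and -0.02 in the latter. Of all 20771 genes with at least 10 counts, genes without a window included, 8.56% were higher and 6.62% lower. Both shares lie above those of the genes with a match. The comparison by motif was chosen after the data were seen and was not tested.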
